A study of Mus musculus with 4 samples.

Results

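ATAC-seq was used in E9.5 mouse hearts to ask how open chromatin changes when SMYD1, a muscle-specific lysine methyltransferase, is missing. The weaker intergenic gained peaks are described here. They are the peaks of the *Smyd1-KO*-enriched list with a score below 200 tags that lay outside every annotated gene body, more than 10 kb from every transcription start site (TSS) and at most 100 kb from the nearest protein-coding TSS. Of the 25745 gained peaks, 2096 met this rule (8.14%). They were chosen by their measured signal: a peak entered the list when its tags in *Smyd1-KO* hearts reached 2 times or more those in wild-type (WT) hearts, and the score is the deposited tag value of the pooled *Smyd1-KO* libraries. It comes in steps of 0.5, so that it is no plain count of tags. How it was scaled is not given in the sources used here, and "tags" below means this value. Accordingly, score and gain are given below as a description and were not tested.

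There were 2 libraries of WT and 2 of *Smyd1-KO* hearts at E9.5, each made from 40000 viable cells of 4 hearts combined. *Smyd1-KO* embryos came from intercrossed *Smyd1+/-* parents and lacked the gene in every cell, no treatment was given, the sexes were mixed, and whole hearts with all their cell types were used. The libraries of a genotype had been combined before the lists were made, so that no peak has a replicate value, no error between hearts can be given, and the depth of each library is unknown from the lists. In pooled hearts, a larger share of a cell type and more open chromatin per cell cannot be told apart. Peaks are not replicates, and the intervals and two-sided Fisher's exact tests below cover counting over peaks only. The heart label could not be checked with markers, since only peaks that differed between the genotypes were used.

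In ATAC-seq, the Tn5 transposase cuts DNA that is not wrapped in nucleosomes, and clusters of cuts are called as open regions. Open regions far from promoters are commonly enhancers, which bind tissue factors such as GATA, T-box, NK2, MEF2, HAND, MEIS and TEAD proteins in the heart, or insulators. Insulators bind CTCF, a zinc finger protein that organizes chromatin loops and whose site has a direction. Which of these sites the weaker intergenic peaks hold was therefore the main question.

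CTCF matches set these peaks apart from the other weak distal peaks. A match to the CTCF consensus of 12 letters was found in 209 of the 2096 peaks, or 9.97% (exact Clopper-Pearson 95% interval 8.72 to 11.3%). Sequences of the 3 highest-scoring peaks with a match, and of those nearest to *Gata5* and *Meis2*, both cardiac transcription factors, are shown to let the site be read. They were picked after their values were seen. All bases of each peak are given 5′ to 3′ on the forward strand of mm10, from the RefSeq GRCm38 sequence. Capitals mark the CTCF match and, in the *Meis2* peak, also a GATA match. Other matches are left in lower case, namely MEIS in the *Maco1* peak and GATA and HAND in the *Ift81* peak. The peaks are at chr8:119412744-119412892 (195 tags), chr4:134799385-134799533 (193.5 tags), chr5:122627313-122627461 (193.5 tags), chr2:180347207-180347355 (160 tags) and chr2:115855911-115856059 (141 tags), all in intergenic sequence.
Mlycd peak: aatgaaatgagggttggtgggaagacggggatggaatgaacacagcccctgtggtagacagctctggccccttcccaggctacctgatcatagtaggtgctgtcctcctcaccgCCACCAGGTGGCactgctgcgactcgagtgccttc
Maco1 peak: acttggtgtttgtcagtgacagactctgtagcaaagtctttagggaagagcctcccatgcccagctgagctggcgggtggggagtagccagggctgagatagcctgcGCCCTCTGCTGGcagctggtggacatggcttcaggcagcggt
Ift81 peak: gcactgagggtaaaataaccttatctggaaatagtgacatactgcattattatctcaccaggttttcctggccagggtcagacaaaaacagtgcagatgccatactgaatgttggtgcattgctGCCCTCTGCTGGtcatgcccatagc
Gata5 peak: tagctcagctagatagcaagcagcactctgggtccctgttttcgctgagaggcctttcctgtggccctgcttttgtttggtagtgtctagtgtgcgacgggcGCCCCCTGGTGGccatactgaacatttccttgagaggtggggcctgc
Meis2 peak: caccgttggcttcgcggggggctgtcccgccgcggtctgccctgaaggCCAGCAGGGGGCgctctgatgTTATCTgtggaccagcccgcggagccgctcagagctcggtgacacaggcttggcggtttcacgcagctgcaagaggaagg

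The site stood on the forward strand in the *Mlycd* and *Meis2* peaks and on the reverse strand in the *Maco1*, *Ift81* and *Gata5* peaks, where its complement is printed. The nearest protein-coding TSS was 17.8 kb away for *Mlycd*, 11.7 kb for *Maco1*, 12.8 kb for *Ift81*, 12.5 kb for *Gata5* and 12.8 kb for *Meis2*. In 4 of these 5 peaks the match lay to the right of the listed centre, by 33.5 to 55.5 bp, and in the *Meis2* peak it lay 2.5 bp to the left of it (offset -2.5 bp).

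A second set of sequences shows peaks that hold several heart motifs. Of the 2096 peaks, 47 had matches to at least 3 of the 8 heart motifs searched (GATA, MEF2, TEAD, TBX, NKX2, MEIS, HAND and SRF). The 5 highest-scoring of them with little repeated sequence are printed, together with the highest-scoring peak with a match for SRF, the serum response factor that drives muscle genes. They are at chr8:94892937-94893085 (197.5 tags), chr17:26813546-26813694 (168.5 tags), chr12:54162852-54163000 (162 tags), chr14:25667191-25667339 (134 tags), chr3:38358049-38358197 (116.5 tags) and chr8:126666476-126666624 (193.5 tags). Capitals mark every match of the heart motifs named for that peak after the sequences, and in the *Irf2bp2* peak the SRF match alone, a MEIS match there being left in lower case.
Dok4 peak: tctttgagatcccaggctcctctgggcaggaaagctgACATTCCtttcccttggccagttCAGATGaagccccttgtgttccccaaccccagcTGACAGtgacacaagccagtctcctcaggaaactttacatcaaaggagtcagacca
Bnip1 peak: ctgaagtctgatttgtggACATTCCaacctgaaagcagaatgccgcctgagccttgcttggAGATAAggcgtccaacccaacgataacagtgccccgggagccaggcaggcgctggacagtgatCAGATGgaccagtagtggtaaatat
Egln3 peak: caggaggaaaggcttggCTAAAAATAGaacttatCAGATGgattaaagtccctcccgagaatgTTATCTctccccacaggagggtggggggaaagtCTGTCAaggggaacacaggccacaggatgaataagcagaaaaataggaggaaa
Zmiz1 peak: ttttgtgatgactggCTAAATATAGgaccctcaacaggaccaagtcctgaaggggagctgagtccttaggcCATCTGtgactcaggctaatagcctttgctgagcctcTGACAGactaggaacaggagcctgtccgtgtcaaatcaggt
Ankrd50 peak: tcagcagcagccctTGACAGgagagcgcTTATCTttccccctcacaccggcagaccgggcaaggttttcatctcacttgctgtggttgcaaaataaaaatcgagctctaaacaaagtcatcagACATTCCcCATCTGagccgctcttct
Irf2bp2 peak: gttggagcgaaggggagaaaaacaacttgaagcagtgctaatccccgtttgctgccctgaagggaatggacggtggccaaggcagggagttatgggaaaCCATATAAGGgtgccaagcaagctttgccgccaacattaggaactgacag

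The *Dok4* peak held TEAD, MEIS and HAND matches, and the *Bnip1* peak GATA, TEAD and HAND matches. The peak nearest to *Egln3*, a prolyl hydroxylase that marks hypoxia-inducible factors for degradation, held GATA, MEF2, MEIS and HAND matches. In the *Zmiz1* peak MEF2, MEIS and HAND matches were found, and in the *Ankrd50* peak GATA, TEAD, MEIS and HAND matches, the last one 97.4 kb from the gene. On both strands, GATA sites were searched as AGATAA and those of TEAD proteins, the partners of YAP in the Hippo pathway, as ACATTCC. T-box sites (TBX) were searched as AGGTGTGA, and those of NK2 homeobox proteins (NKX2) as CACTTNA. The letters for MEIS homeobox proteins were TGACAG and those for HAND proteins, which bind E-boxes, were CATCTG. Sites of the stress-responsive factor AP-1 were searched as TGANTCA, the GC box of SP1 as GGGCGGGG, and the core site of nuclear receptors (NR) as AGGTCA. CTCF, MEF2 and SRF were searched by their consensus, and matches of different motifs could overlap. A match describes the letters of the window and does not show that a factor was bound.

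The peaks spanned the range of signal that the rule allows. Their scores ran from 30.5 to 199.5 tags, with a median of 80 and quartiles of 56 and 116, against a median of 180.5 for all gained peaks. At the upper edge, the peaks nearest to *Cggbp1* and *Pfdn4* had 199.5 tags and fell inside, whereas the peak nearest to *Hps6*, with 200 tags, fell outside. In all, 32 of the peaks had 190 tags or more, and 31 peaks at the same kind of place had between 200 and 210. The edge at a TSS ran between 10013 bp, for a peak near *Sparc*, and 9974 bp, for one near *Fcgr4*, and that at 100 kb between 99623 bp, for a peak near *Kbtbd8*, and 100007 bp, for one near *Rfx3*. The signal and the distance thus ran on without a break across the edges.

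The nearest protein-coding TSS was a median of 32.3 kb away, and the nearest TSS of any kind 21.8 kb. The plot of score against distance shows the whole set. A peak lay upstream of the nearest protein-coding gene in 1230 cases (58.7%). The rule leaves out gene bodies, which lie downstream of their TSS, so that this share draws on the rule and is a description. The sequence between the protein-coding genes on either side was a median of 121 kb long. Across the 2096 peaks, score was weakly related to distance (Spearman's rho -0.15, lower farther away) and to GC content (rho 0.36). Both are descriptions across peaks that share the same 2 libraries.

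**Figure D1:**
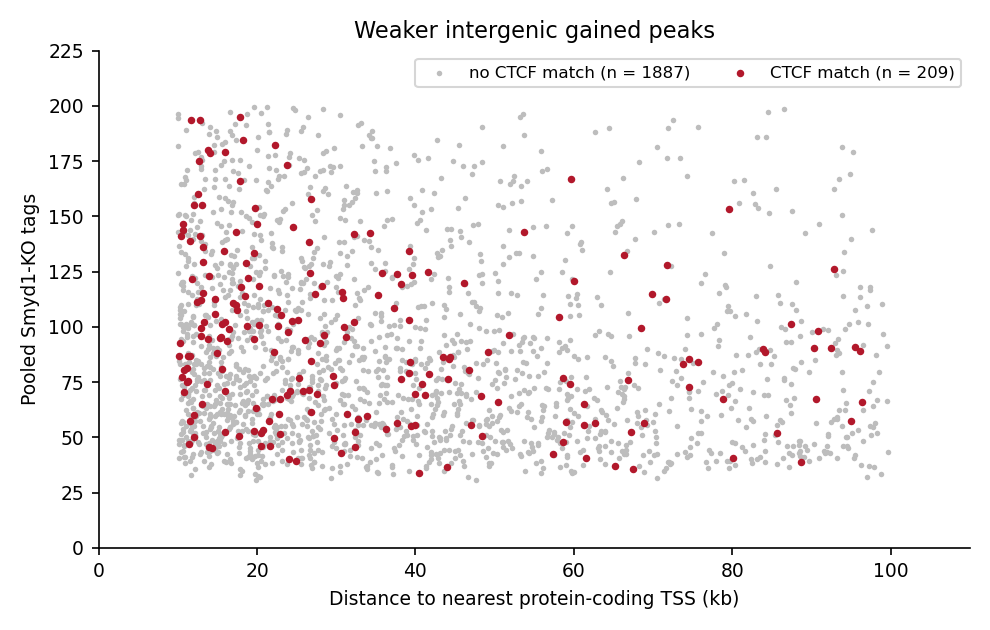
Score of each of the 2096 weaker intergenic gained peaks (y axis, pooled *Smyd1-KO* tags) against the distance to the nearest protein-coding TSS (x axis, kb). The 209 red points have a CTCF match and the 1887 grey points have none; the edges of the cloud at 10 kb, 100 kb and 200 tags are those of the rule.

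Intergenic sequence of this kind, 10 to 100 kb from protein-coding genes, made up 395 Mb or 14.9% of the assembled genome without gaps. It held 5.30 weak gained peaks per Mb. Weak peaks inside gene bodies and equally far from TSSs came to 5.43 per Mb, and weak intergenic peaks more than 100 kb from protein-coding genes to 2.31 per Mb. These 2 groups, with 3354 and 1471 peaks, share the score limit and the 10 kb limit with the set and serve below as comparators, as do the 386 stronger peaks (200 tags or more) at the same places. They are called gene-body peaks, gene-desert peaks and stronger peaks. Counted per Mb, peaks with a CTCF match numbered 0.529 in the set, 0.290 in gene bodies and 0.0691 in deserts.

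Among the WT-enriched list of 106 peaks, 17 lay in intergenic sequence at the same distances (16.0%), and among the gained peaks of any score 2482 did (9.64%). Since the rule uses the place, these shares are a description, and some of the 17 lay close together. Of the 2096 peaks, 13 had a WT-enriched peak within 100 kb.

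CTCF matches were found in 9.97% of the set and in 5.34% of the gene-body peaks (odds ratio 1.96, 95% interval 1.60 to 2.42, Fisher's exact test, adjusted exact p = 3.6e-09 over 60 motif tests). Gene-desert peaks had a match in 2.99% (odds ratio 3.59, 2.58 to 5.01, adjusted exact p = 3.2e-15). Across all other settings tried, the odds ratio against gene-body peaks stayed between 1.64 and 2.27 and that against gene-desert peaks between 2.74 and 4.16, all past the threshold. Stronger peaks at the same places had a match in 5.18% (odds ratio 2.03, 1.26 to 3.25, adjusted exact p = 0.0179). This difference did not hold under every setting: it was lost when a match within 150 bp of the peak centre was counted, a window chosen after seeing the data (11.0% against 9.84%, adjusted exact p = 0.775), and it turned when the score limit was 100 tags (9.0% against 9.51%, odds ratio 0.941).

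**Figure D2:**
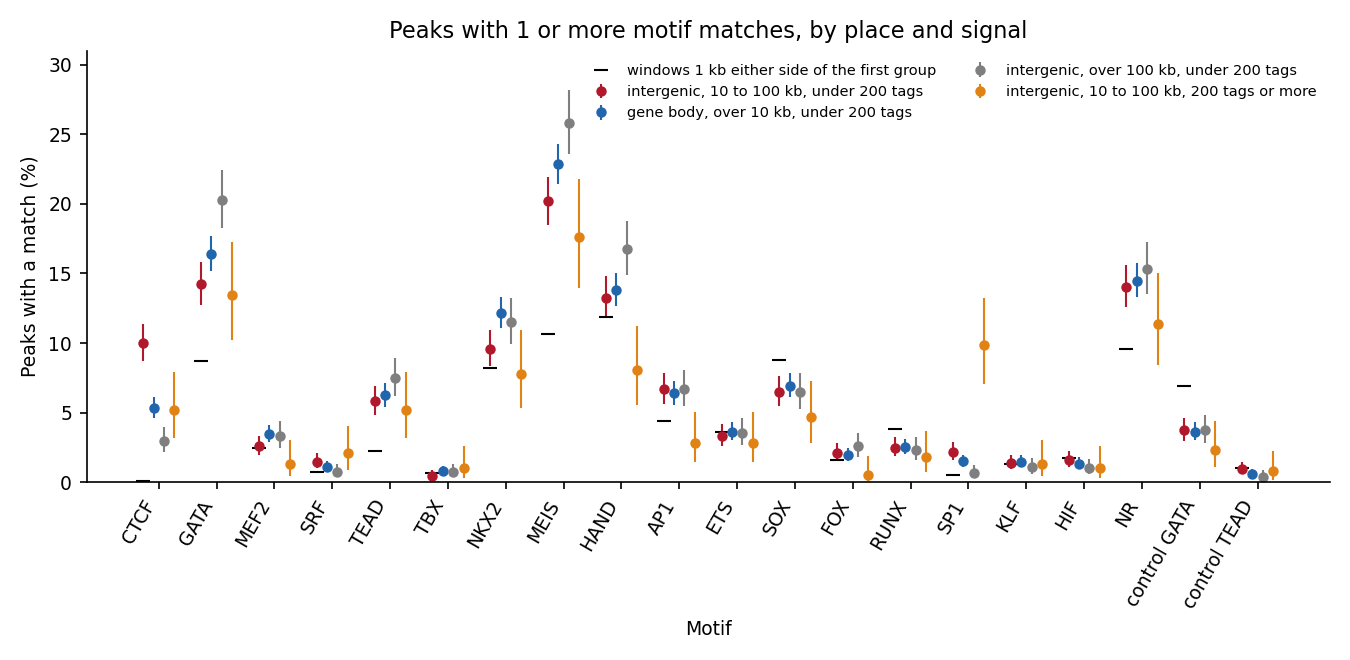
Share of peaks with at least 1 match to each motif (y axis, %) in the weaker intergenic gained peaks (red), gene-body peaks (blue), gene-desert peaks (grey) and stronger intergenic peaks (orange); bars are exact 95% intervals and black dashes the share of windows 1 kb either side of the red group. CTCF at 9.97% stands above the other 3 groups, whereas red GATA and MEIS points stand at or below the blue and grey ones.

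The sites were concentrated in the peaks themselves. Of 4192 windows of the same width placed 1 kb either side of the peaks, 5 held a CTCF match (0.119%), and over all gained peaks 4.34% did. In the 50 bp around the peak centre there were 0.868 CTCF matches per kb, 136.5 times the density between 200 and 500 bp away, where only 8 matches were found. The matches lay to one side of the listed centre: of 227 matches within 100 bp, 168 (74.0%) lay at higher coordinates, with a median offset of 27.5 bp. Matches on the forward strand had a median offset of 11.5 bp and those on the reverse strand of 36.5 bp, and the 202 matches at gene-body peaks had a median of 27.5 bp too. The cause of this offset was not tested. With matches counted out to 150 bp, 11.0% of the set and 6.26% of the gene-body peaks had one (odds ratio 1.85, adjusted exact p = 1.4e-08).

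Within the set, the share with a CTCF match varied with signal and distance. The share with a match was 5.28% below 50 tags, 9.09% from 50 to 75 tags, 11.95% from 75 to 100 tags and 14.1% from 100 to 150 tags, and it was 7.41% above that (18 of 243 peaks). Gene-body peaks in the same bins had 3.80, 3.80, 6.19, 7.47 and 6.75%. The intervals of the groups did not overlap from 50 to 150 tags and overlapped in the lowest and highest bins. By distance, 12.7% of the peaks within 20 kb of a protein-coding TSS had a match, 9.85% of those at 20 to 50 kb and 7.49% of those beyond. Peaks with a match had a median score of 90.5 tags and a median distance of 26545 bp, against 79 tags and 32946 bp for those without.

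**Figure D3:**
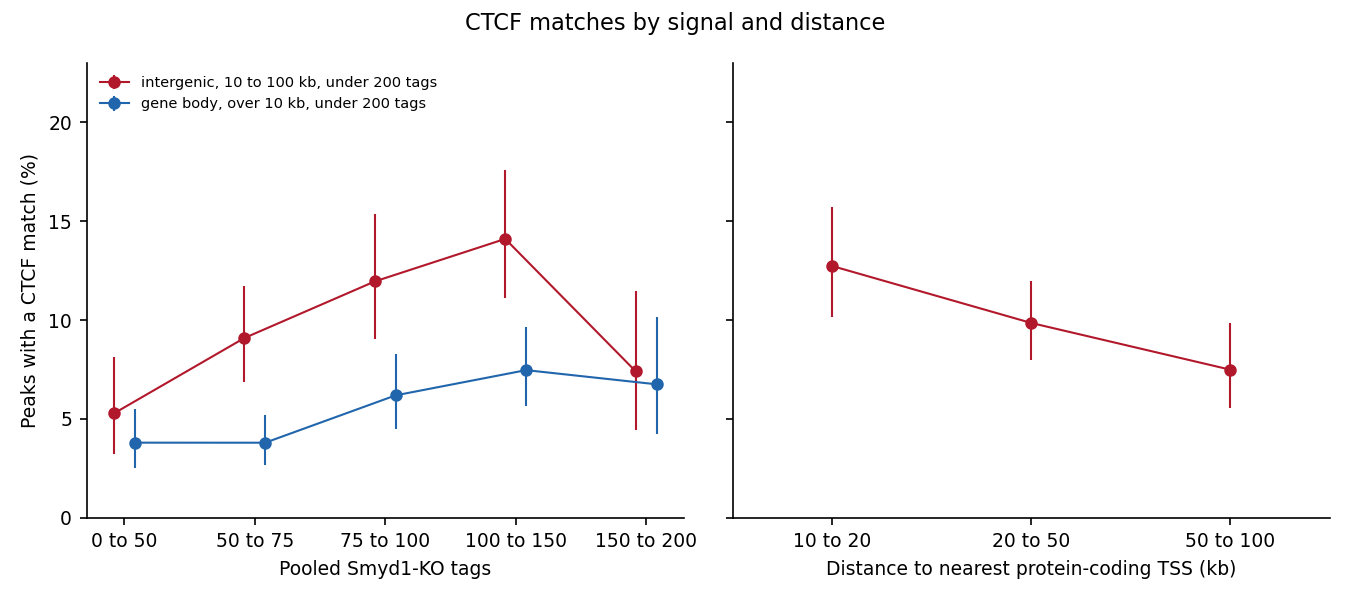
Share of peaks with a CTCF match (y axis, %) by score bin (left, pooled *Smyd1-KO* tags; weaker intergenic gained peaks in red, gene-body peaks in blue) and, for the intergenic peaks, by distance to the nearest protein-coding TSS (right, kb). Bars are exact 95% intervals; the intergenic share rises from 5.28% to 14.1% up to 150 tags and falls from 12.7% to 7.49% with distance.

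Further features of the peaks with a CTCF match are given as values without a test. A GATA match was present in 10 of the 209 (4.78%) and in 15.3% of those without a CTCF match, and a MEIS match in 12.9% and 20.99%, whereas a HAND match was present in 32 of the 209 (15.3%) and in 13.04%. Their nearest protein-coding gene had a gained peak within 3 kb of its TSS in 50.7% of cases, against 61.3%. Read along its own direction, the site pointed away from the nearest protein-coding TSS in 117 peaks and towards it in 92. Of the 10 genes nearest to most peaks, only *Mc3r*, a melanocortin receptor, had 2 peaks with a CTCF match, of 69 and 52.5 tags, and they lay 41.3 and 32.3 kb upstream of it.

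Of the motifs of heart factors, GATA, MEIS, TEAD and SRF had a share in the set at least 1.63 times that in its flanks, which was not tested, and no heart motif was found more often than in gene-body peaks past the threshold. GATA matches were in 14.2% of the set against 8.73% of the flanking windows, MEIS matches in 20.2% against 10.6%, TEAD matches in 5.82% against 2.24% and AP-1 matches in 6.68% against 4.37%. Near the peak centre, TEAD matches were 2.97 times, MEIS matches 2.16 times, AP-1 matches 1.92 times and GATA matches 1.91 times as dense as 200 to 500 bp away. As controls, the letters of GATA were reordered to GAATAA and those of TEAD were reordered to ACTATCC. The GATA control was found in 3.72% of the peaks and in 6.89% of the flanks, thus going the other way. The TEAD control was found in 0.954% and 1.05%, and its few matches, 8 within 25 bp, were 1.32 times as dense near the centre as 200 to 500 bp away. Neither control passed the threshold against any of the 3 comparators. MEF2 matches, in 2.58% of the peaks and 2.48% of the flanks, and HAND matches, in 13.3% and 11.9%, were close to their surroundings. SRF matches were in 1.48% of the peaks, 0.740% of the flanks and 1.10% of gene-body peaks. TBX matches, in 0.477% of the peaks and 0.668% of the flanks, were the rarest, and NKX2 matches were in 9.59% and 8.18%.

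**Figure D4:**
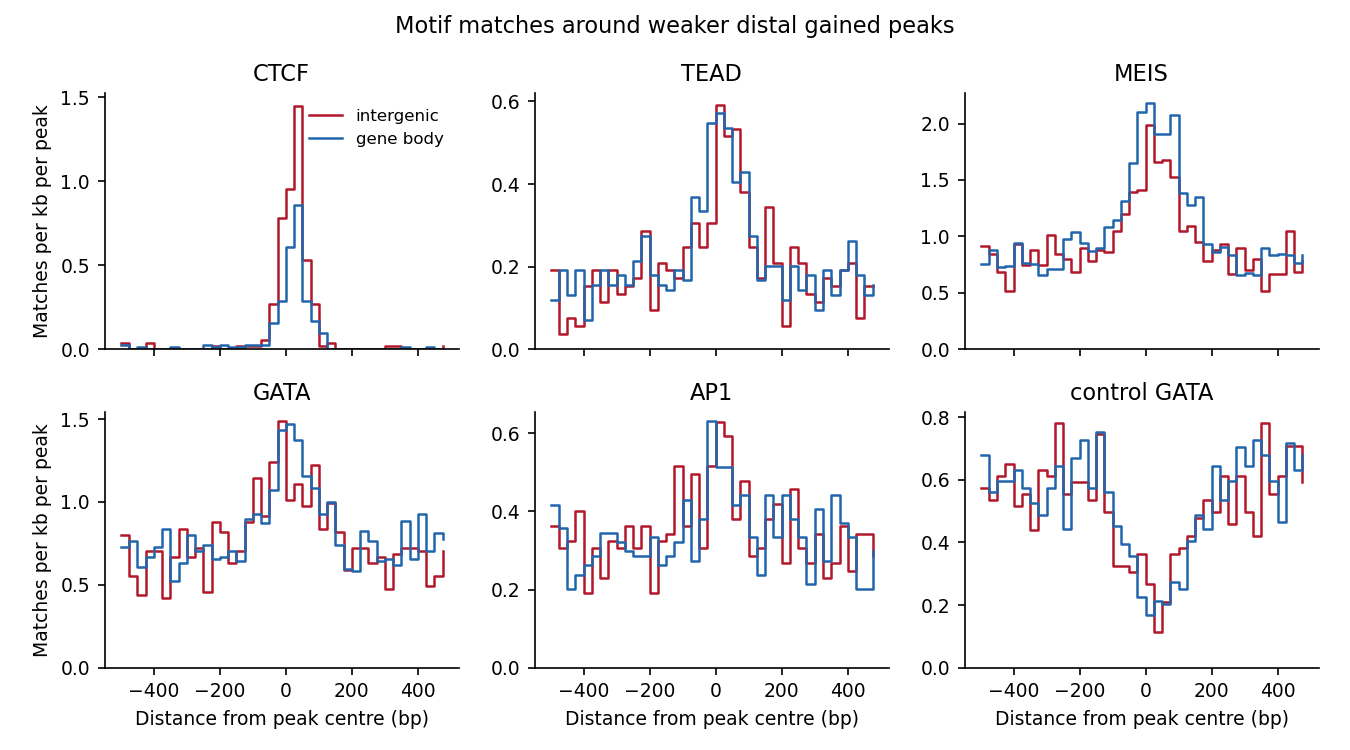
Density of matches (y axis, matches per kb per peak) by distance from the listed peak centre (x axis, bp, bins of 25 bp) for 5 motifs and the reordered GATA control, in the weaker intergenic gained peaks (red) and in gene-body peaks (blue). CTCF, TEAD, MEIS, GATA and AP-1 rise at the centre, the CTCF maximum lies to its right, and the control falls.

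Against the gene-body peaks, the only heart motif to pass the threshold was NKX2, found in 9.59% of the set and 12.2% of gene-body peaks (odds ratio 0.766, 95% interval 0.641 to 0.916, Fisher's exact test, adjusted exact p = 0.0211). It no longer passed among peaks with 45 to 55% GC, a restriction chosen after seeing the data (odds ratio 0.857, adjusted exact p = 0.643), nor with a 50 kb limit (adjusted exact p = 0.0569). GATA matches were in 14.2% and 16.4% (odds ratio 0.845, 0.725 to 0.985, adjusted exact p = 0.145). For TEAD the odds ratio was 0.930 (0.739 to 1.17, adjusted exact p = 0.815) and for MEF2 0.738 (0.532 to 1.02, adjusted exact p = 0.246). Hence 2 of the 18 motifs, CTCF and NKX2, passed against gene-body peaks.

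Against gene-desert peaks the set had fewer matches for several heart factors. GATA fell from 20.3% in deserts to 14.2% (odds ratio 0.652, 0.547 to 0.778, Fisher's exact test, adjusted exact p = 3.8e-05), a call that ended when only the central 75 bases were searched (odds ratio 0.745, adjusted exact p = 0.0760). MEIS was at 25.8% in deserts and 20.2% in the set (odds ratio 0.726, 0.620 to 0.850, adjusted exact p = 0.00093) and HAND at 16.8% and 13.3% (odds ratio 0.758, adjusted exact p = 0.0215). SP1, the GC box of many promoters, was at 0.680% in deserts and 2.15% in the set (odds ratio 3.21, adjusted exact p = 0.0044). These 3 calls did not hold among the fewer peaks with 45 to 55% GC (adjusted exact p = 0.180, 0.593 and 0.593), and that of GATA did. With a 50 kb limit the SP1 call ended as well (odds ratio 1.47, adjusted exact p = 0.376), and that of HAND ended below 100 tags (adjusted exact p = 0.116) and among peaks with at most 10% recurring words of 32 bases (adjusted exact p = 0.0776).

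Stronger peaks at the same places differed from the set most in SP1 matches, at 9.84% against 2.15% (odds ratio 0.201, 0.129 to 0.314, Fisher's exact test, adjusted exact p = 8.6e-10). HAND matches were at 8.03% in stronger and 13.3% in weaker peaks (odds ratio 1.75, adjusted exact p = 0.0211), and AP-1 matches at 2.85% and 6.68% (odds ratio 2.44, adjusted exact p = 0.0184). Both of these last calls ended under 3 or more of the other settings. Among peaks with 45 to 55% GC, SP1 could not be compared, since a match was present in 0.904% of the weaker peaks and in none of the few stronger ones.

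Few of the weaker intergenic peaks were rich in CpG. The median GC content was 51.7%, the median CpG ratio (observed over expected) 0.209, and 64.9% had a GC content over 50%. CpG-island-like sequence, with GC over 50% and a CpG ratio over 0.6, was found in 84 peaks or 4.01%, against 23.8% of the stronger peaks (odds ratio 0.133, 95% interval 0.0969 to 0.184, Fisher's exact test, adjusted exact p = 2.3e-31 over 18 tests). Of the stronger peaks 91.7% had GC over 50% (odds ratio 0.167, adjusted exact p = 2.1e-29). Within the set the island-like share went from 0.556% below 50 tags to 8.64% from 150 tags on.

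Gene-body peaks were island-like in 1.73% of cases, fewer than the set (odds ratio 2.37, 1.69 to 3.33, Fisher's exact test, adjusted exact p = 1.4e-06), although with a score limit of 100 tags the call was lost (1.96% against 1.16%, adjusted exact p = 0.0966). Of gene-desert peaks 3.20% were island-like, which did not differ from the set past the threshold (odds ratio 1.26, 0.879 to 1.82, adjusted exact p = 0.288). GC content over 50% was found in 60.8% of gene-body peaks (odds ratio 1.19, 1.07 to 1.34, adjusted exact p = 0.0042) and this call ended with basic transcripts (odds ratio 1.11), with a limit of 100 tags (odds ratio 1.09) and with gene-body peaks limited to 100 kb (odds ratio 1.12). In deserts, 50.6% had GC over 50% (odds ratio 1.80, 1.58 to 2.07, adjusted exact p = 9.3e-17).

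Nearly all of the set was unique sequence. In 1921 of the 2096 peaks no word of 32 bases recurred in the assembled genome. More than 10% of the words recurred in 6.35% of the set, in 4.26% of gene-body peaks (odds ratio 1.52, 1.19 to 1.94, Fisher's exact test, adjusted exact p = 0.0015) and in 10.9% of gene-desert peaks (odds ratio 0.555, adjusted exact p = 4.25e-06). Both calls ended when over 50% of the words had to recur (odds ratios 1.61 and 0.885, adjusted exact p = 0.0598 and 0.678), and that against gene-body peaks also at 45 to 55% GC (odds ratio 1.36, adjusted exact p = 0.0956). Chromosome X held 55 of the 2096 peaks of the set (2.62%) and 591 of all 25745 gained peaks. Its share of gene-body peaks was lower (1.46%; odds ratio 1.82, 1.23 to 2.68, Fisher's exact test, adjusted exact p = 0.0049). The share of the set did not differ past the threshold from that of deserts (1.84%) or stronger peaks (3.63%; odds ratio 0.716). With the score limit at 100 tags the direction against stronger peaks turned and passed (3.56% against 1.81%, odds ratio 1.998, adjusted exact p = 0.0171).

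Over all gained peaks, 31.5% had another gained peak within 10 kb, but most gained peaks lie within 10 kb of a TSS and the rule keeps the set out of those places, so that this share cannot be set against that of the set. The nearest gained peak of any kind was a median of 27.9 kb away, 347 peaks (16.6%) had one within 10 kb, and 189 had none within 100 kb. Over all scores, gene-body peaks had a neighbour within 10 kb equally often (16.6%; odds ratio 0.996, 0.860 to 1.15, Fisher's exact test, adjusted exact p = 0.970). This did not hold in each score bin. Below 50 tags 5.28% of the set and 12.4% of gene-body peaks had one, with intervals that did not overlap. From 50 to 75 tags the shares were 14.9% and 13.9%, and in the set the share reached 34.2% from 150 tags on. The bins were not tested. Within 50 kb, 71.6% of the set and 66.8% of gene-body peaks had one (odds ratio 1.25), but the set was limited to 100 kb from a protein-coding TSS and the gene-body peaks were not, so that this wider window draws on the rule and is given without a test. Stronger peaks had a neighbour within 10 kb in 33.7% (odds ratio 0.391, 0.307 to 0.497, Fisher's exact test, adjusted exact p = 4.4e-13). Gene-desert peaks had one in 11.7%. They lay more than 100 kb from every protein-coding TSS, where no gained peak at such a promoter can be within 10 kb. This difference therefore draws on the rule too and is given without a test.

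The nearest protein-coding gene had a gained peak within 3 kb of its TSS for 60.3% of the set and for 71.2% of the gene-body peaks (odds ratio 0.613, 0.547 to 0.688, Fisher's exact test, adjusted exact p = 4.5e-16). Over all other settings this odds ratio was between 0.585 and 0.687. The shares at gene-desert peaks (63.5%; odds ratio 0.872, adjusted exact p = 0.0817) and at stronger peaks (64.5%; odds ratio 0.834, adjusted exact p = 0.174) did not differ from the set past the threshold. Counted by gene, 1042 of the 1740 genes nearest to a peak of the set had such a promoter peak (59.9%), and 50.4% of the other protein-coding genes did.

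When gaps of up to 20 kb were joined, 1723 peaks stood alone, 152 pairs and 16 triplets formed, and 5 groups held 4 or 5 peaks. The single group of 5 lay at chr12:13176201-13215127 between *Mycn*, a MYC family transcription factor, and *Ddx1*, an RNA helicase gene and the nearest one to all 5. Its peaks had 133.5, 174.5, 53, 153.5 and 134.5 tags from left to right, at 14.3 to 53.0 kb from the *Ddx1* TSS. The middle one was the lowest, and it alone held a TEAD match. None of the 5 had a CTCF match.

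The next groups had 4 peaks each. That nearest to *Pdlim5*, which encodes a PDZ-LIM protein of the Z-disc, spanned chr3:142411027-142444112 with 65.5, 57.5, 185.5 and 130 tags. The one nearest to *Ndfip2*, an adaptor of ubiquitin ligases, lay towards *Spry2*, an antagonist of FGF signalling, at chr14:105356263-105382710 with 49.5, 79.5, 154 and 107.5 tags. In it 3 of the 4 peaks held a GATA match and 3 a MEIS match. Its peak of 49.5 tags, which held a GATA match, had 32.2% recurring words of 32 bases. The *Pdlim5* peak of 130 tags had 51.7%. Groups of 4 near *Opcml*, a cell adhesion gene, and *Dab2*, an endocytic adaptor gene, had lower scores of 64 to 97 and 38.5 to 79 tags.

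Each peak was given to the protein-coding gene with the nearest TSS, which need not be the gene it acts on. In this way 1740 of 21924 protein-coding genes (7.94%) were nearest to at least 1 peak, of which 1449 had 1, 239 had 2, 42 had 3, 7 had 4 and 3 had 5. The genes with 5 were *Ddx1*, *Ndfip2* and *Dab2*. With 4 each followed *March10*, a ubiquitin ligase gene (55 to 190.5 tags), *Errfi1*, an inhibitor of EGF receptor signalling (69 to 179 tags), *Pdlim5*, *Opcml*, *Mc3r*, *Tbx4*, a T-box factor of the hindlimb and lung (59 to 92.5 tags), and *Igfbp2*, a binding protein of insulin-like growth factors (49 to 88.5 tags).

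Lists of genes of the heart and of other cell types, 10 in all, were then counted. Of their 211 genes, 58 (27.5%) were nearest to a peak, against 7.94% of all protein-coding genes. The lists were compiled by hand with earlier results of these data known, and the counts are a description. Genes with much intergenic sequence around them have more room for such peaks: cardiac transcription factor genes had a median of 59.2 kb of it, and the median over all protein-coding genes was 1.70 kb. Peaks were therefore also counted per Mb of the sequence at 10 to 100 kb that belongs to each list. All 10 lists lay above the 5.30 per Mb of all genes by this count, from 6.58 for epicardial and mesenchymal genes to 18.8 for angiogenic ligands, and the sum of all lists came to 10.9 per Mb. Markers of red blood cells and of endoderm and other tissues were among those above, at 12.8 and 15.4 per Mb from 4 and 5 peaks, so that a high count was not particular to heart genes.

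**Figure D5:**
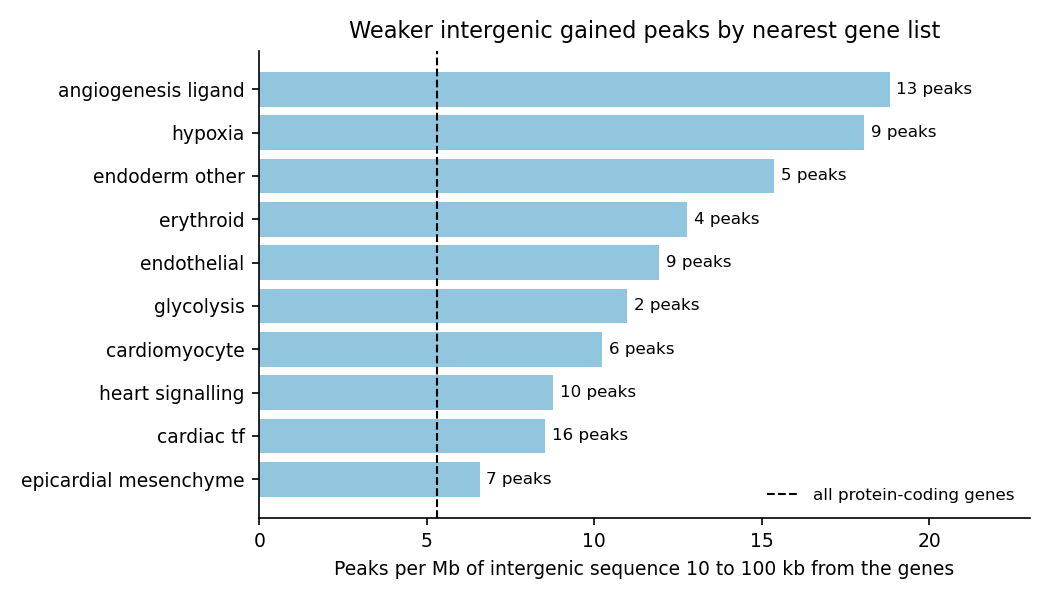
Weaker intergenic gained peaks per Mb (x axis) of the intergenic sequence that lies 10 to 100 kb from the TSSs of the genes of each list (y axis), with the number of peaks beside each bar; the dashed line marks all protein-coding genes at 5.30 per Mb. All bars pass the line, from 6.58 to 18.8 per Mb, and several rest on fewer than 10 peaks.

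Cardiac transcription factors had 13 of 32 genes nearest to a peak (40.6%) with 16 peaks, or 8.54 per Mb. *Irx3*, an Iroquois factor of the ventricular conduction system, had 3 peaks, of 187, 91.5 and 121 tags, between it and *Irx5*. *Hand2*, of the right ventricle, had 1 peak of 176.5 tags 71.8 kb upstream. *Gata5*, of the endocardium, and *Meis2* had the peaks with CTCF matches printed above. *Hand1*, of the left ventricle, had 1 of 128 tags with GATA and TEAD matches at 14.7 kb, *Gata4* 1 of 120 tags with none of the 18 motifs at 25.6 kb, and *Tbx3*, of the conduction system, 1 of 115.5 tags with a GATA match, towards *Tbx5*. *Hey2*, a Notch target of the ventricular wall, had 2 peaks of 38.5 and 48 tags. The single peaks of the other 5 genes had 36 to 46 tags.

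Of 30 cardiomyocyte genes, 5 were nearest to a peak (16.7%). *Tpm1*, which encodes tropomyosin, had 2, of 81.5 and 134.5 tags. *Ryr2*, the calcium release channel, had 1 of 176.5 tags, *Slc8a1*, the sodium-calcium exchanger, 1 of 167.5 tags with NKX2 and MEIS matches, and *Ttn*, which encodes titin, 1 of 167 tags at 15.9 kb. These 3 were in the upper quartile of the set, above 116 tags, whereas the peak of the remaining gene, *Nebl*, which encodes the actin-binding protein nebulette and is named after its value was seen, had 38.5 tags and was in the lower quartile.

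Heart signalling genes had 8 of 23 nearest to a peak (34.8%). *Bmp2*, a ligand of the cardiac cushions, had 3 peaks of 92, 56.5 and 90 tags at 53.1 to 83.4 kb, and the weakest held a CTCF match. *Tgfb2*, another cushion ligand, had 1 of 178 tags with an AP-1 match, *Wnt11*, of non-canonical WNT signalling, 1 of 170.5 tags, *Jag1*, a Notch ligand, 1 of 102 tags, and *Has2*, the hyaluronan synthase of the cardiac jelly, 1 of 79 tags with a GATA match.

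Angiogenic ligands had 6 of 16 genes (37.5%) and 13 peaks, none with a CTCF match. *Cxcl12*, a chemokine that guides coronary vessels, had 3 peaks downstream at 55.9 to 82.9 kb, of 39.5, 68 and 155.5 tags. *Sema3c*, a guidance cue of the outflow tract, had 3 upstream, of 44.5, 78 and 62.5 tags, with MEIS matches in the first 2. *Vegfa*, the main growth factor of endothelial cells, had 1 on either side, of 140 and 148.5 tags at 11.97 and 31.1 kb, both with an NR match, which 14.0% of the set and 9.59% of the flanks had. *Pdgfa*, a growth factor, had 2, of 105 and 82 tags, *Efnb2*, the ephrin of arteries, 2, of 88.5 and 86 tags, both with MEIS matches, and *Pgf*, the placental growth factor, 1 of 112.5 tags.

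Markers of endothelial cells counted 7 of 22 genes (31.8%) with 9 peaks. *Npr3*, the natriuretic peptide clearance receptor of the endocardium, had 2, of 113.5 and 132 tags, *Flt1*, a VEGF receptor, 2, of 81 and 55 tags, and *Ets1*, an ETS factor, 1 of 190 tags, the highest near any gene of the 10 lists. *Cdh5*, the cadherin of endothelial junctions, had 1 of 88.5 tags, and the remaining 3 genes had 1 each of 38 to 57 tags. Erythroid genes had 3 of 18 (16.7%) with 4 peaks. Among them *Lmo2*, a cofactor of blood and vessel development, had 1 of 99.5 tags with GATA and MEIS matches. Whether shares of endothelial or blood cells differed between the pooled hearts was not tested.

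The genes of the remaining 4 lists are named after their values were seen. In the hypoxia list 5 of 18 genes (27.8%) were nearest to 9 peaks. *Egln3* had 3, of 162, 85.5 and 102.5 tags, the last with a match to the hypoxia response element TACGTG. *P4ha1*, a collagen prolyl hydroxylase, had 2, of 95.5 and 158 tags, and the stronger one had a CTCF match. *Egln1*, the main oxygen sensor, had 2, of 73 and 70 tags, and *Epas1*, which encodes HIF-2-alpha, 1 of 70.5 tags. Over the whole set, matches to the response element were in 1.62% of peaks and 1.77% of flanks. Of 20 glycolysis genes 2 were nearest to a peak (10.0%, against 7.94% of all genes), namely *Hk2* at 57 tags and *Pfkfb3* at 32.5 tags. These genes had little intergenic sequence at 10 to 100 kb. Per Mb of it the count was 11.0, from only 2 peaks, against 5.30 for all genes.

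Epicardial and mesenchymal genes had 5 of 17 (29.4%), among them *Col1a1*, which encodes a collagen chain, with 2 peaks of 166 and 164 tags, and *Tcf21*, a factor of the epicardium, with 2 of 34 and 44 tags. Genes of endoderm and other tissues had 4 of 16 (25%). *Foxa2*, a factor of the endoderm, had 2, of 56 and 181.5 tags, and *Krt8*, a keratin gene of epithelia, 1 of 148.5 tags.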

How the data were processed

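ATAC-seq libraries (2 per genotype, each from 4 pooled hearts) were aligned by the authors to mm10 with BWA-MEM and peaks were called with HOMER 4.10.3, with a 2-fold difference in tags as the limit. The deposited value per peak is a signal (pooled tags), in steps of 0.5 in the *Smyd1-KO* list. How duplicates, multiply mapped reads and the Tn5 offset were treated is not given in the sources used here, and each could change which weak peaks are listed. No fold change per peak was used.

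All intervals were 149 bp wide and were placed against GENCODE M21 (full set), measuring from the nearer peak edge. Sequences were read from RefSeq GRCm38. Motif strings were searched on both strands of the peak and of windows 1 kb away. Peak shares were tested with Fisher's exact test (two-sided), with Benjamini-Hochberg adjustment over 60 motif tests and 18 other tests, with a threshold of 0.05, and with Woolf intervals for odds ratios. Words of 32 bases were counted over 21 chromosomes. Python 3.11.15, numpy 2.4.6, pandas 2.3.3 and scipy 1.17.1 were used, and the placement, the motif search and the tests were tested on simulated data. Named genes were the 10 nearest to most peaks, up to 30 genes of 6 lists (most peaks first, then the highest score) and those at the 3 longest groups of peaks. Members, motifs and gene lists were chosen with earlier results of these data known.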

Additional observations from a re-analysis of the deposited data

How the results depend on the processing

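No paired analysis was possible because the libraries had been pooled before the lists were made, and for the same reason no replicate could be left out. Of 132 recalculated values of the main results, 121 were rated as unchanged. An odds ratio was so rated when it kept its side of the threshold and, where either value passed, its direction. The counts of peaks and of motifs that passed were so rated when they stayed close to the value as designed. A limit of 100 tags gave 1378 peaks, and a GC content of 45 to 55%, chosen after seeing the data, 1217. The odds ratio against gene-body peaks for GC content over 50% fell below the threshold with basic transcripts (1.11), below 100 tags (1.09) and with gene-body peaks limited to 100 kb, chosen after seeing the data (1.12). That for island-like sequence did so below 100 tags (1.70), and that for repeated words when over 50% of words had to recur (1.61) or at 45 to 55% GC (1.36). For a neighbour within 50 kb it was 1.25, a window that draws on the rule's distance limit. The number of motifs that passed, 2 as designed, was 4 with a limit of 300 tags and 1 at 45 to 55% GC. Against stronger peaks, odds ratios turned for chromosome X (1.998) and CTCF (0.941) below 100 tags. For SP1 at 45 to 55% GC the value of 1.73 rests on a count of 0 in the few stronger peaks and shows no turn. The causes were not tested. Consensus strings miss variants of a site, and the depth behind each peak cannot be read from the lists.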
